A study of Mus musculus with 9 samples.

Results

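The 28 genes described here encode carriers, channels, pump subunits and regulators by which the kidney tubule moves sodium, potassium, chloride and water. They are a list of named genes, chosen with earlier results of these data known. No measured value entered the rule itself, and all 28 were found among the 23420 genes of the expression table. All 28 also passed the filter on low values, so none is missing from the 15098 genes tested.

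In the tubule, Na,K-ATPase in the basolateral membrane keeps cell sodium low, and each segment lets sodium back in through its own apical protein. The thick ascending limb uses the cotransporter NKCC2, the distal convoluted tubule uses the thiazide-sensitive cotransporter NCC, and the principal cells of the connecting tubule and collecting duct use the epithelial sodium channel ENaC. Potassium channels return or secrete potassium, chloride leaves through channels and cotransporters of the basolateral side, and aquaporins carry water, in principal cells under the control of vasopressin.

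The fasted group held 4 mice that had gone without food for 16 h, and the fed group held 5 mice with free access to food. All were male C57/BL6 mice on chow under a 12 h light and 12 h dark cycle, their age is not given in the sources used here, and no mutation or drug is named. RNA was taken from a piece of kidney cortex of about 50 mg, 1 library per mouse, so each value is an average over all cell types of that piece. The question put to these libraries is which transcripts of the cortex differ between mice kept without food for 16 h and mice with food.

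Levels are normalized counts, that is, reads per gene divided by a size factor of the library. Changes and differences are fasted over fed on the log2(value + 1) scale, with a 95% interval or standard error (SE), and a gene was called changed at a limma p-value, adjusted over all genes tested, under 0.05. Means are given ± SD with n = 4 fasted and n = 5 fed mice. Libraries held 18902645 to 27186745 reads in fasted mice and 19638174 to 32469467 in fed mice. Library Fed 3 stood apart: the ribosomal RNA entry Rn45s took 5.53% of its counts, followed by 2.36% in Fasted 1 and 0.513% to 1.38% in the other libraries. Fed 3 was the highest or lowest of the 9 libraries for 15 of the 28 genes (53.6%), and for 39.9% of all genes tested, so values without it are given where they matter. Markers of thick limb, distal convoluted tubule, principal, intercalated and proximal tubule cells were present in every library. Of 4 adrenal markers, Cyp11b1 and Cyp11b2 were listed at 0 throughout and Cyp21a1 stayed under 10. The summed level of the 4, Star included, was 224 to 283 in fasted mice and 174 to 308 in fed mice. For 5 urothelium markers the sum was 19.2 to 73.5 in fasted mice and 15.9 to 24.9 in fed mice. The summed level of 5 adipocyte markers was 3.84 to 73.3 in fasted mice and 2.15 to 7.89 in fed mice, with Adipoq, Lep and Retn under 10 in every library.

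After the fast, 3 of the 28 genes were called changed, 1 higher (5.72% of all genes tested) and 2 lower (5.25%). Bsnd and Slc12a7, which both serve the exit of chloride from the cell, were lower in fasted mice, and Nedd4l, a ubiquitin ligase that removes ENaC from the membrane, was higher. The other 25 did not pass, among them the 3 apical sodium entry routes Slc12a1, Slc12a3 and the 3 ENaC subunits. The 3 calls make up 10.7% of the list, and 11% of all genes tested were called, so the share of called genes was near the background and is not a result about the list. The same background applies to the counts by segment, marker list and role below, where 1 call among few genes is no result about a group. An unadjusted p under 0.05 was reached by 7 of the 28 genes and by 26.8% of all genes tested. With DESeq2 and with voom and quality weights, both on the recovered reads, 5 of the 28 genes were called, where DESeq2 called 16.8% of all genes and voom with quality weights 17.9%. The median change of the 28 genes was -0.13, with 19 changes below 0 and 9 above it, while the median over all genes tested was 0.0009. The median size of a change, whichever its direction, was 0.16 over the 28 genes and 0.16 over all genes tested. The intervals of 27 genes lay within 2-fold in either direction and those of 21 genes within 1.5-fold. Wnk4 was the exception at 2-fold, with an interval of -1.03 to 0.08.

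**Figure D1:**
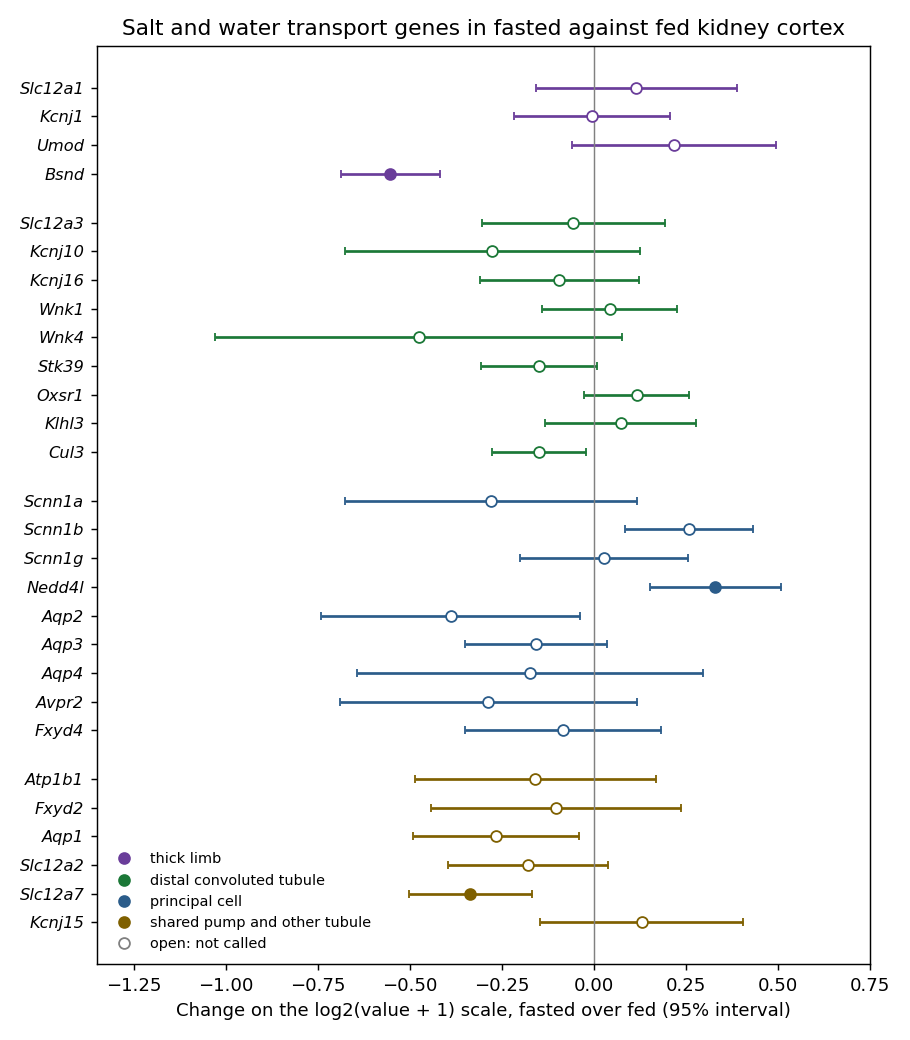
Change of each of the 28 genes in fasted over fed kidney cortex on the log2(value + 1) scale, with its 95% interval, grouped by tubule segment; filled points passed an adjusted p of 0.05 and open points did not. Bsnd (-0.55) and Slc12a7 (-0.34) lie left of 0, Nedd4l (0.33) lies right of 0, and the other 25 genes are open.

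In the thick limb group, 1 of 4 genes was lower, none was higher and 3 did not pass, where 5.25% of all genes tested were lower and 5.72% higher. Bsnd encodes barttin, an accessory subunit of basolateral chloride channels of the thick limb, distal tubule and intercalated cells. Its level was 1107, 1075, 1108 and 1007 normalized counts in the fasted mice, against 1602, 1557, 1661, 1455 and 1610.3 in the fed mice. Every fasted value lay below every fed value, with a wide gap between the groups and little spread inside either. The means were 1074 ± 47.5 in fasted mice and 1577 ± 77.7 in fed mice, a change of -0.55 (SE 0.06, interval -0.69 to -0.42, adjusted p = 0.00043), or a fitted fold of 0.681. Bsnd lies on the minus strand at chr4:106483456-106492283 (GRCm38), and no other annotated gene overlaps its exons. In pieces of tissue, fewer cells of a type and less RNA per cell cannot be told apart. Of 9 other thick limb markers 1 (Ptger3) was lower and 8 did not pass, and their summed level was 64103 to 97914 in fasted mice and 58668 to 77509 in fed mice. Of 9 intercalated cell markers 2 (Foxi1 and Slc4a1) were lower and 7 did not pass, with sums of 10003 to 11281 in fasted mice and 10321 to 12147 in fed mice. Neither list had a marker at 0, and the part of these cell types in the change of Bsnd was not tested.

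The other thick limb genes showed overlapping groups. Slc12a1, which encodes NKCC2, the target of loop diuretics, ranged over 40399 to 59328 normalized counts in fasted mice and 40827 to 49954 in fed mice (change 0.11, interval -0.16 to 0.39). Kcnj1 encodes ROMK, the apical channel that recycles potassium for NKCC2, and its change was -0.0046 (interval -0.22 to 0.21). Umod encodes uromodulin, the most abundant protein of normal urine. It had 110332, 96896, 106094 and 93386 normalized counts in fasted mice, against 91572, 98557, 68179.9, 89100.0 and 92563 in fed mice, and the groups overlapped through Fed 2 (change 0.22, interval -0.06 to 0.49, adjusted p = 0.30). The lowest of these values belongs to Fed 3, and without that library the change of Umod was 0.13. An antisense transcript, Gm44588, covers 19.5% of the exonic bases of Umod, and whether the counting used strand is not given in the sources used here.

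The 250 bases before the RefSeq start of Slc12a1 are shown. This is a window of the list that holds a letter match to the FoxO motif GTAAACA, which fasting-regulated FoxO factors are known to read. The gene as GENCODE draws it starts at 125152505, inside the bases shown. These bases run over chr2:125152350-125152599 on the plus strand (RefSeq, GRCm38.p6), 5′ to 3′, with the match, which is on the opposite strand, in capitals.
Slc12a1: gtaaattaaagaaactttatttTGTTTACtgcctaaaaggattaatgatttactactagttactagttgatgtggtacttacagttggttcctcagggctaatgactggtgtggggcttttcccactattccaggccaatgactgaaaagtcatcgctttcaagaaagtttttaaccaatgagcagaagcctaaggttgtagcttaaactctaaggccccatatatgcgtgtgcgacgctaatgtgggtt
Both strands of 300-base windows, 250 bases before to 50 after each start, were searched for 22 of the 28 genes. The motif was found for Slc12a1 and Avpr2, neither of them called, and in the windows of 3.25% of the tested genes that have one. The cAMP response element TGACGTCA was found for Oxsr1 alone, against 3.31% of the tested genes. A match of letters is a description and not a site of binding.

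Within the distal convoluted tubule group none of the 9 genes was called in either direction. Slc12a3, which encodes the cotransporter NCC, had 26637, 23667, 30333 and 29420.2 normalized counts in fasted mice, against 24479, 30948, 33924, 25843 and 28218 in fed mice. The groups overlapped over most of their range, with means of 27515 ± 3008 in fasted mice and 28683 ± 3826 in fed mice (change -0.06, interval -0.31 to 0.19). Kcnj10 and Kcnj16 encode Kir4.1 and Kir5.1, which together form the basolateral potassium channel of this segment. Kcnj10 had a difference of -0.28 (interval -0.68 to 0.13) and Kcnj16 one of -0.09 (interval -0.31 to 0.12). Neither passed, and the wide interval of Kcnj10 goes with fed values that reached from 1208 in Fed 4 to 2523 in Fed 3. Without Fed 3 the change of Kcnj10 was -0.15. Per kb of the principal transcript, Kcnj10 had 276 normalized counts in fasted mice and 342 in fed mice. Kcnj16 had far more, 4985 in fasted mice and 5281.5 in fed mice, and the cell types behind these reads cannot be told apart.

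The kinases and ligase parts that set the activity of NCC had mostly narrow intervals around 0. Wnk1, a kinase of the pathway that activates NCC, had a difference of 0.04 (interval -0.14 to 0.22). Its annotated exons cover 22.82 kb, against 10.57 kb in the principal transcript. Counts per gene do not tell its transcripts apart, here or in the ratio to Wnk4 below. Oxsr1 and Stk39 encode OSR1 and SPAK, the kinases that WNKs activate and that phosphorylate NCC and NKCC2. Oxsr1 had a difference of 0.12 (interval -0.03 to 0.26) and Stk39 one of -0.15 (interval -0.31 to 0.01). Klhl3 and Cul3 encode the adaptor and scaffold of the ubiquitin ligase that degrades WNKs. Klhl3 had a difference of 0.07 (interval -0.13 to 0.28) and Cul3 one of -0.15 (interval -0.28 to -0.02, adjusted p = 0.12).

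Wnk4, whose kinase is a main regulator of NCC, had the widest range over the 9 libraries of the 28 genes. It had 2726, 2095, 2976 and 2828 normalized counts in fasted mice, against 2558, 3326, 6589, 2572 and 4580 in fed mice. Fed 2, Fed 3 and Fed 5 stood above all fasted mice, while Fed 1 and Fed 4 lay among them. The coefficient of variation, the SD as a share of the mean, was 14.6% in fasted mice and 43.4% in fed mice. The change was -0.48 (SE 0.25, adjusted p = 0.25), and without Fed 3 it was -0.26.

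The log2 ratio of Wnk1 to Wnk4 within a library, which does not depend on the size factor, was 3.03 to 3.31 in fasted mice and 1.84 to 3.01 in fed mice. The groups did not overlap, with a difference of 0.52 (two-sided exact permutation test, p = 0.0159, the smallest that the 126 assignments can give). Adjusted over the 6 ratios tested, p was 0.0952 (exact permutation test), so the ratio did not pass, and without Fed 3 the difference was 0.33. The other 5 ratios, of Slc12a1 to Umod, Slc12a3 to Slc12a1, Scnn1a to Scnn1g, Aqp2 to Aqp3 and Atp1b1 to Fxyd2, gave exact permutation p-values of 0.317 or more.

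**Figure D2:**
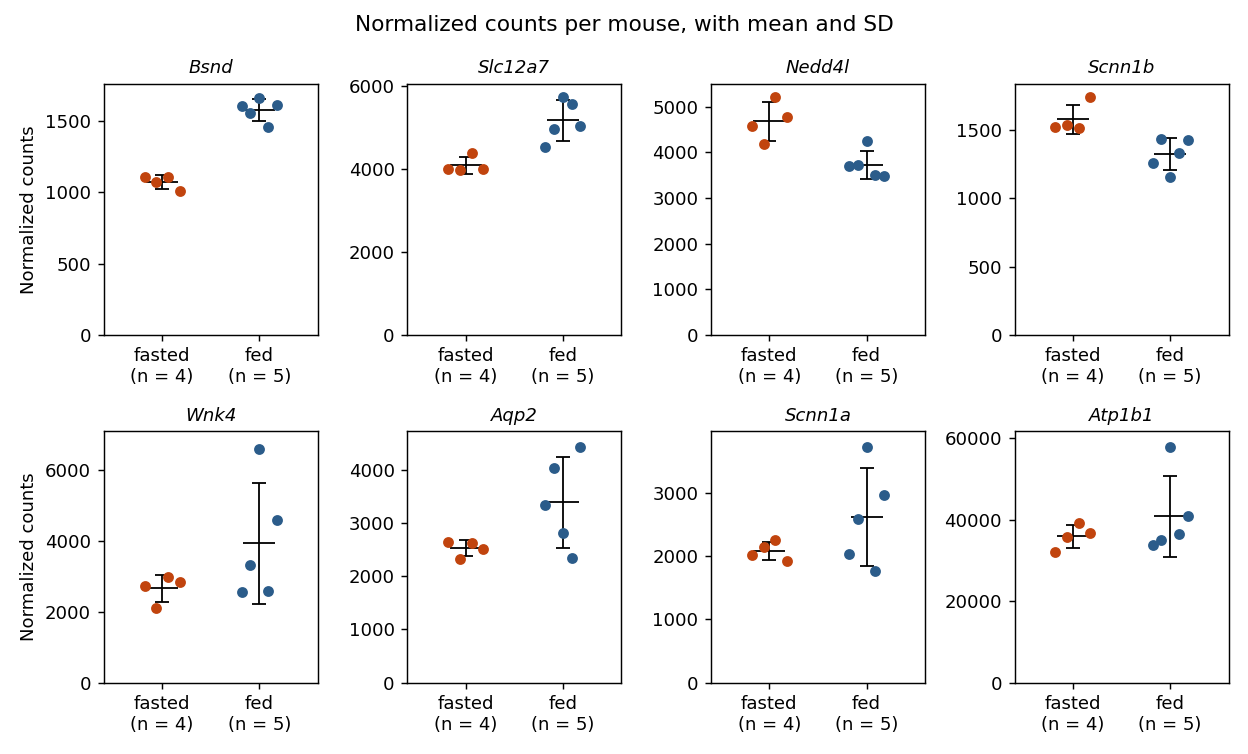
Normalized counts (linear axis from 0) of 8 of the 28 genes, 1 point per mouse, fasted (n = 4) left of fed (n = 5), with the mean as a horizontal line and the SD as error bars. The groups are apart for Bsnd, Slc12a7 and Scnn1b and overlap for Nedd4l, and the fed mice spread widely for Wnk4, Aqp2, Scnn1a and Atp1b1, with Fed 3 at 57893 normalized counts of Atp1b1.

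Of the 9 principal cell genes 1 was higher, none was lower and 8 did not pass, where 5.72% of all genes tested were higher and 5.25% lower. Nedd4l encodes NEDD4-2, a ligase that tags ENaC for removal and that the aldosterone-induced kinase SGK1 restrains. It had 4571, 4183, 5206 and 4780.2 normalized counts in fasted mice, against 3692, 3726, 4248, 3498 and 3472 in fed mice. The groups overlapped only where Fed 3, at 4248, exceeded Fasted 2, at 4183. The means were 4685 ± 426 in fasted mice and 3727 ± 312 in fed mice, a change of 0.33 (SE 0.08, interval 0.15 to 0.51, adjusted p = 0.0253). Nedd4l did not pass without Fasted 1 (adjusted p = 0.0565), Fasted 3 (0.0759), Fasted 4 (0.0784), Fed 1 (0.0578), Fed 2 (0.0529) or Fed 4 (0.0502), while its change stayed between 0.28 and 0.39 over all 22 alternatives.

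The ENaC subunits had 1 gene near the threshold. Scnn1b, the beta subunit, had 1522, 1537, 1517 and 1742 normalized counts in fasted mice, against 1259, 1435, 1159, 1333 and 1429 in fed mice. Every fasted value lay above every fed value, with means of 1579.5 ± 109 in fasted mice and 1323 ± 117 in fed mice. The change was 0.26 (interval 0.08 to 0.43, adjusted p = 0.0602), so Scnn1b was not called, although it passed with DESeq2 on the recovered reads (adjusted p = 0.027), with quality weights for the libraries (0.0407) and without Fed 5 (0.0439). It stayed uncalled in 18 of 22 alternatives. Groups that do not overlap occurred for 3 of the 28 genes (10.7%), namely Bsnd, Slc12a7 and Scnn1b, and for 14.3% of all genes tested.

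The 250 bases before the start of Scnn1b are shown as the promoter of the one ENaC gene whose groups were apart. They run over chr7:121864788-121865037 on the plus strand (RefSeq, GRCm38.p6), 5′ to 3′, and are in lower case throughout because none of the 5 motifs searched was found there.
Scnn1b: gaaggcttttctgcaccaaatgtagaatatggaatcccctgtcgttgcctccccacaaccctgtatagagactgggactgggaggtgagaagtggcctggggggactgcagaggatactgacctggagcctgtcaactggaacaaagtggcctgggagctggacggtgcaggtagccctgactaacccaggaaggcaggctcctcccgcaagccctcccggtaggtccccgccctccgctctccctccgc
The full steroid receptor palindrome, to which the mineralocorticoid and glucocorticoid receptors bind, was absent from the windows of all 22 genes and present in those of 0.0182% of the tested genes. The direct repeat DR1 of PPAR receptors and the HNF1 palindrome were also absent from the 22, and 0.0364% and 0.0091% of the tested genes held them. Exact letters this long are rare in any set of windows, so nothing follows about the factors.

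Scnn1a and Scnn1g, the alpha and gamma subunits of ENaC, did not pass. Scnn1a had 2016, 2143, 2252 and 1929.5 normalized counts in fasted mice, against 2044, 2585, 3727, 1765 and 2971 in fed mice, and the fasted values lay inside the fed range. Its change was -0.28 (interval -0.68 to 0.12), and -0.14 without Fed 3. Scnn1g had a difference of 0.03 (interval -0.20 to 0.25).

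Of the water channel genes of the principal cell, none passed. Aqp2 encodes the vasopressin-regulated channel of the apical membrane, and it had 2638, 2325, 2633 and 2517 normalized counts in fasted mice, against 3350.0, 4034, 2820.4, 2341 and 4440.0 in fed mice. All fasted values lay below 4 of the 5 fed values, and Fed 4, at 2341, lay among the fasted mice. The change of Aqp2 was -0.39 (interval -0.74 to -0.04, adjusted p = 0.15), and without Fed 4 it was -0.51 and passed (adjusted p = 0.032). Aqp2 did not pass in the other 21 of 22 alternatives, and its change over all 22 lay between -0.51 and -0.28. Aqp3 and Aqp4 encode the basolateral exits for water. Aqp3 had a difference of -0.16 (interval -0.35 to 0.04) and Aqp4 one of -0.17 (interval -0.64 to 0.29). Avpr2, the vasopressin receptor that drives Aqp2, had a difference of -0.29 (interval -0.69 to 0.12), with 275 to 381 normalized counts in fasted mice and 282 to 502 in fed mice. Reads of Avpr2 are uncertain, since Arhgap4 on the opposite strand covers 81.3% of its exonic bases. Fxyd4, which encodes a collecting duct modulator of Na,K-ATPase, had a difference of -0.08 (interval -0.35 to 0.18).

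Markers of connecting tubule and principal cells stood beside these values as follows. Of 8 markers 2 (Npnt and Slc8a1) were lower, against 5.25% of all genes tested, none was higher and 6 did not pass, with a median change of -0.33. The summed level of these 8 was 23465 to 29866 normalized counts in fasted mice and 27360 to 46208 in fed mice, and none was at 0. Thin limb and inner medulla markers had sums of 2938 to 4723 in fasted mice and 3217 to 5039.5 in fed mice. Of these, Slc14a2 had 1626, 571, 311 and 1040.3 normalized counts in fasted mice, against 1264, 831, 356, 377 and 1152 in fed mice. Fed 1, Fed 2 and Fed 5 were above Fed 3 and Fed 4 for Slc14a2, Aqp2 and Avpr2, while the order of the fasted mice differed between these genes. The part of either marker list in the values of Nedd4l, Scnn1b, Aqp2 and Avpr2 was not tested.

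Among the shared pump genes and those of other tubule segments, 1 of 6 was lower, none was higher and 5 did not pass. Of all genes tested, 5.25% were lower and 5.72% higher. Slc12a7 encodes KCC4, a cotransporter by which potassium and chloride leave the cell on the basolateral side, known from intercalated and proximal tubule cells. It had 3994, 3977, 4398 and 3994 normalized counts in fasted mice, against 4548, 4979, 5741, 5586 and 5033 in fed mice. Every fasted value lay below every fed value, by a small margin between Fasted 3 and Fed 1. The means were 4091 ± 205 in fasted mice and 5177 ± 485 in fed mice, a change of -0.34 (SE 0.08, interval -0.50 to -0.17, adjusted p = 0.0186). Slc12a7 did not pass without Fasted 1 (adjusted p = 0.0546), without Fasted 4 (0.0602) or without both Fed 3 and Fasted 1 (0.0704). Beside the intercalated markers given with Bsnd, 9 proximal tubule markers had 1 higher (Slc13a3), 1 lower (Slc34a1) and 7 that did not pass. Their sums were 418777 to 483805 in fasted mice and 467628 to 644633 in fed mice, and their part in the change of Slc12a7 was not tested.

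The 250 bases before the first RefSeq start of Slc12a7 are shown because Slc12a7 is the called gene of the list for which the RefSeq table gives a window. They run over chr13:73763410-73763659 on the plus strand (GRCm38.p6), inside the gene as GENCODE draws it (chr13:73733094-73816754), and hold none of the 5 motifs.
Slc12a7: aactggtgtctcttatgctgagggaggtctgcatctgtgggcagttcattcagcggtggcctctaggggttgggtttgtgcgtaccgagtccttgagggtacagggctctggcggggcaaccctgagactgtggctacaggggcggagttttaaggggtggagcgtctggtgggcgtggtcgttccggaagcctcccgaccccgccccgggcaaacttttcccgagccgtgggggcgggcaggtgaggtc

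The remaining pump and transport genes of this group had overlapping values. Atp1b1, the beta subunit of Na,K-ATPase, had 32074, 35598, 39076 and 36617 normalized counts in fasted mice, against 33851, 34982, 57893, 36414 and 40759 in fed mice. Fed 3 alone lay far above the rest, and the change of -0.16 (interval -0.49 to 0.17) was -0.03 without it. Nme7 on the opposite strand covers 18.7% of the exonic bases of Atp1b1. Fxyd2, the gamma subunit that tunes the pump, had 18829 to 20642 normalized counts in fasted mice and 15686 to 26644 in fed mice (change -0.10, interval -0.44 to 0.24). The fasted values of Fxyd2 sat close together inside the fed range, whose lower end was Fed 3 and Fed 5.

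Aqp1, the constitutive water channel of the proximal tubule and thin descending limb, had 21785, 18485, 19947 and 21614 normalized counts in fasted mice, against 24499, 27029, 19806, 25186 and 27120 in fed mice. Only Fed 3 lay among the fasted mice. The change was -0.27 (interval -0.49 to -0.04, adjusted p = 0.12) and without Fed 3 it was -0.35 and passed (adjusted p = 0.0238), as it did without Fed 3 and Fasted 1 (0.0386), with quality weights (0.0289) and with DESeq2 (0.0497). Aqp1 did not pass in the other 18 of 22 alternatives. Slc12a2, which encodes NKCC1, the widely expressed relative of NKCC2, had a difference of -0.18 (interval -0.40 to 0.04). Kcnj15, which encodes the potassium channel Kir4.2 of the proximal tubule, had a difference of 0.13 (interval -0.15 to 0.41).

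Levels of different genes were compared as normalized counts per kb of the principal transcript. By the mean over all 9 libraries Umod was highest, followed by Fxyd2, Atp1b1 and Slc12a1. Umod had 38734 per kb in fasted mice and 33522 in fed mice, and Fxyd2 had 31521 in fasted mice and 34635 in fed mice, so that Umod led in fasted mice and Fxyd2 in fed mice. The lowest by the same mean were Aqp4, with 224 per kb in fasted mice and 256 in fed mice, Avpr2, with 182 in fasted mice and 227 in fed mice, and Klhl3, with 206 in fasted mice and 197 in fed mice. The 3 ENaC genes lay close together: Scnn1b had 637 per kb in fasted mice and 534 in fed mice, Scnn1a had 596 in fasted mice and 748 in fed mice, and Scnn1g had 480.4 in fasted mice and 475 in fed mice. NKCC2 (Slc12a1) stood at 10893 per kb in fasted mice and 9964 in fed mice, and NCC (Slc12a3) at 8340.2 in fasted mice and 8694 in fed mice. The rank of a gene with long alternative exons depends on the length used, as Nedd4l was rank 13 per kb of the principal transcript and rank 23 per kb of all its exons, and Fxyd2 rank 2 and rank 5 on these scales.

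**Figure D3:**
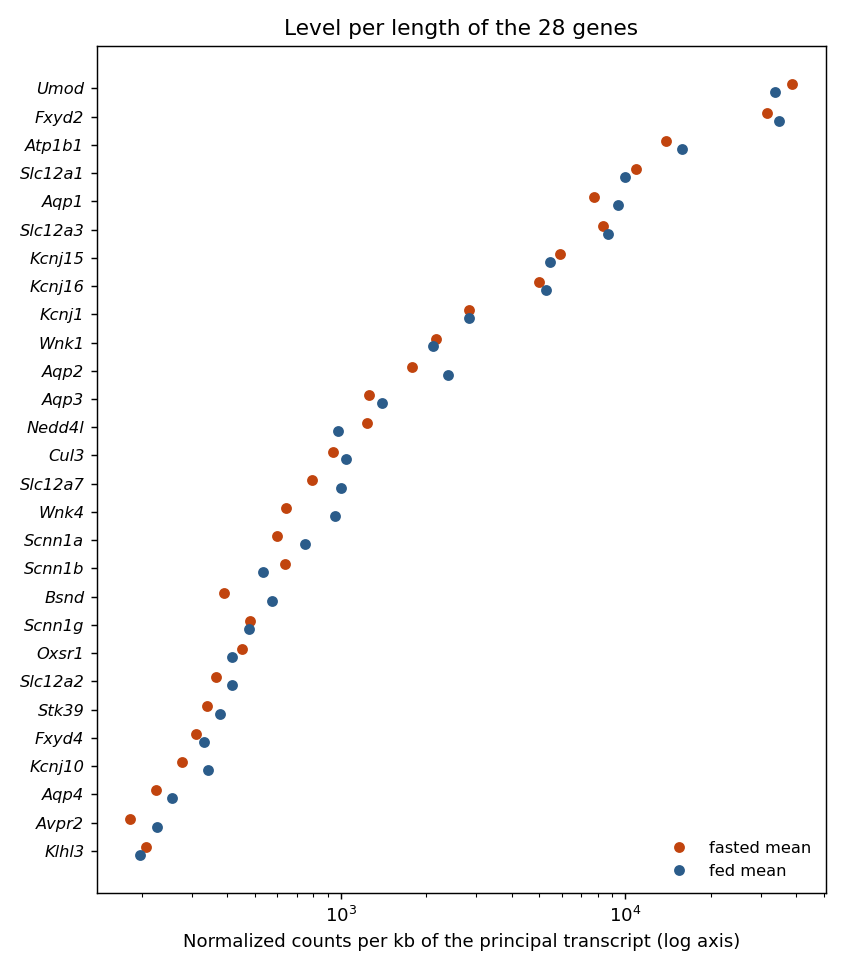
Mean level of each of the 28 genes per kb of its principal transcript (logarithmic axis), fasted mice drawn just above fed mice in each row. Genes are ordered by the mean over all 9 libraries, from Umod (38734 per kb in fasted mice and 33522 in fed mice) down to Klhl3 (206 in fasted mice and 197 in fed mice); single groups differ in places from this order, and the 2 groups lie close together against this range.

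Spread among mice was narrower in the fasted group for most of these genes. The coefficient of variation was smaller in fasted than in fed mice for 20 of 28 genes, with a median of 8.36% in fasted mice and 12.0% in fed mice. The 8485 genes at least as high as the lowest of the 28 had medians of 6.99% in fasted mice and 9.38% in fed mice. Bsnd, Kcnj10, Wnk4, Scnn1a and Atp1b1 had Fed 3 and Fed 5 as their highest pair of libraries. The share of all genes with that pair was not counted. Fed 5 by itself was the highest or lowest library for 17.9% of the 28 genes and for 20.4% of all genes tested. These are descriptions of the same 9 libraries, and the reason for the shared pair was not tested.

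**Figure D4:**
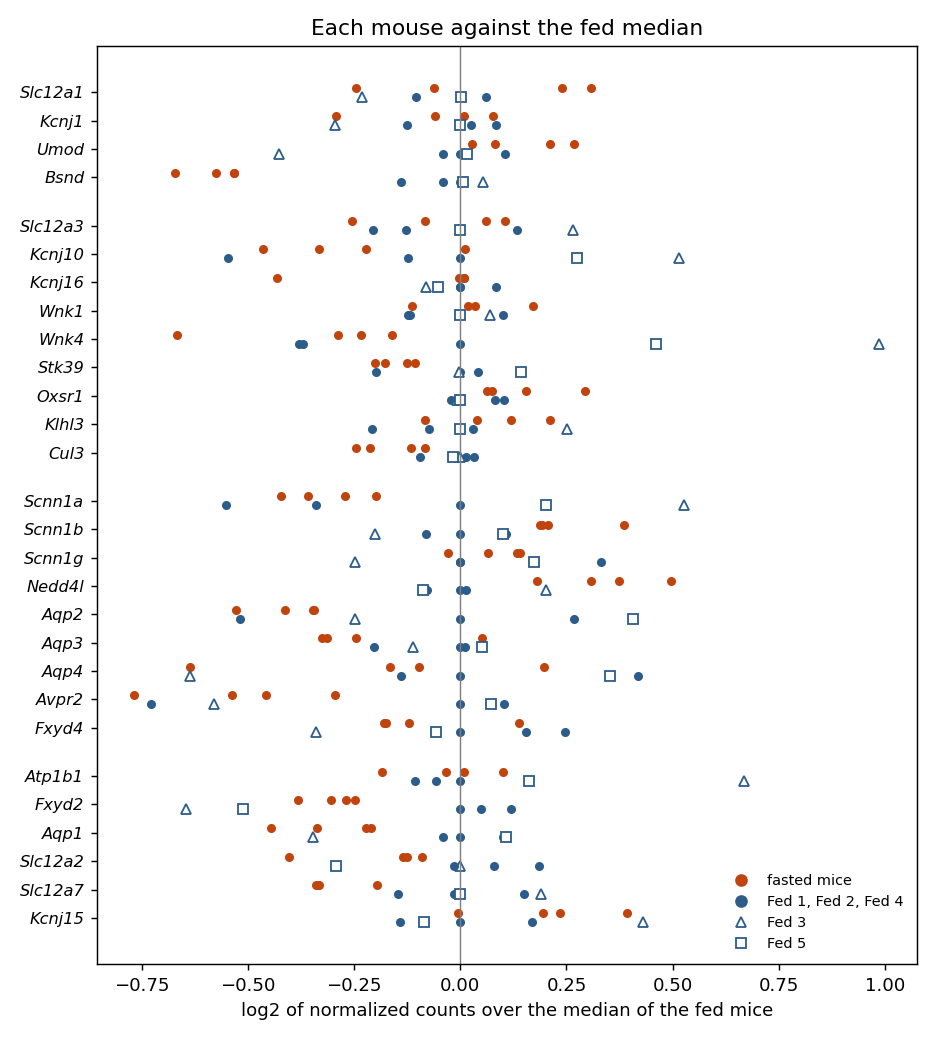
Each mouse's log2 normalized count over the median of the fed mice, for the 28 genes; fasted mice are drawn just above fed mice in each row, and Fed 3 (triangle) and Fed 5 (square) have their own marks. The 4 fasted mice lie left of every fed mouse for Bsnd and Slc12a7 and right of them for Scnn1b, and Fed 3 is the far right point for Wnk4, Kcnj10, Scnn1a and Atp1b1.

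With earlier results of these data known, a further list of 50 genes of the same transport was chosen by role. It held other pump subunits, channels and cotransporters, sodium exchangers, water and urea channels, and regulators. Of the 50 genes, 48 were tested and 7 were called (14.6%, against 11% of all genes tested), 3 of them higher and 4 lower in fasted mice. Groups that do not overlap occurred for 9 of the 48 (18.8%), called or not, and for 14.3% of all genes tested. Because of how the list was chosen, its shares describe it and do not test it. Among 9 pump subunits 1 was higher and 1 lower. Atp12a, the catalytic subunit of the non-gastric H,K-ATPase, which takes up potassium in exchange for protons, had 69.8, 99.0, 107 and 84.5 normalized counts in fasted mice, against 9.68, 14.7, 10.5, 21.5 and 3.98 in fed mice. All fasted values were far above all fed values, from a low fed level (change 2.95, interval 2.14 to 3.76, adjusted p = 0.000793). An antisense transcript, Gm10873, covers 13.9% of the exonic bases of Atp12a, and whether its reads entered these counts was not tested. Atp4a, the catalytic subunit of the gastric H,K-ATPase, had 1171 ± 31.1 in fasted mice and 1508 ± 131 in fed mice (change -0.36, adjusted p = 0.0104). The groups of Atp4a did not overlap.

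Among 11 further potassium and chloride channels and cotransporters 1 was higher and 10 did not pass. Kcnma1, which encodes the pore of the BK potassium channel, had 457, 454, 376 and 452 normalized counts in fasted mice, against 210, 289, 267, 335 and 374 in fed mice. The groups lay just apart, with the lowest fasted value at 376 in Fasted 3 and the highest fed value at 374 in Fed 5. The change of 0.58 (interval 0.25 to 0.91, adjusted p = 0.0323) did not pass in 6 of 22 alternatives, namely without Fasted 1 (adjusted p = 0.0832), Fasted 2 (0.0794), Fasted 4 (0.0927), Fed 2 (0.0614), Fed 3 (0.0567), or both Fed 3 and Fasted 1 (0.122).

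Both called genes among the 6 sodium exchangers and cofactors were lower. Slc9a3 encodes NHE3, the sodium and proton exchanger of the proximal tubule brush border. It had 2222, 2169.8, 2405 and 2492 normalized counts in fasted mice, against 2750.1, 2897, 3084, 3072 and 2728 in fed mice, with no overlap (change -0.32, adjusted p = 0.0117). Without both Fed 3 and Fasted 1 it did not pass (adjusted p = 0.0536). Slc9a3r1 encodes NHERF1, a scaffold that binds NHE3 and the phosphate carrier of that membrane. It had 2675, 3249.6, 3144 and 2839 in fasted mice, against 4653, 4426, 5624, 5362 and 4242 in fed mice, again with no overlap (change -0.70, adjusted p = 0.00139).

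None of 6 water and urea channel genes passed, and of 16 regulators 1 was higher and 1 lower. Adcy6, an adenylyl cyclase through which the vasopressin receptor acts in principal cells, had 6088 ± 335 normalized counts in fasted mice and 4991 ± 259 in fed mice (change 0.29, adjusted p = 0.0161, and 0.061 without Fasted 4). Ptger1, a prostaglandin E2 receptor, had 386 ± 29.2 in fasted mice and 548 ± 75.7 in fed mice (change -0.50, adjusted p = 0.0156). It did not pass without Fasted 1 (adjusted p = 0.0501), Fasted 4 (0.052) or both Fed 3 and Fasted 1 (0.0734), and its reads are uncertain, since annotated exons on the opposite strand overlap it. Sgk1, the kinase that restrains NEDD4-2, is named after its values were seen. It had 6031, 5446, 9649 and 4403 normalized counts in fasted mice, against 2065, 5389.9, 4909, 2101 and 2058 in fed mice, with Fed 2 and Fed 3 among the fasted values. Its change of 1.03 did not pass (interval 0.30 to 1.77, adjusted p = 0.0731), and it passed without Fed 2 (0.0347) or Fed 3 (0.0414). It stayed uncalled in 19 of 22 alternatives. Sgk1 was not alone near the threshold. Slc9a2 (change 0.30, adjusted p = 0.0728), Nedd4 (0.23, 0.0753) and Slc4a8 (-0.28, 0.0804) were also uncalled with an adjusted limma p under 0.1.

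**Figure D5:**
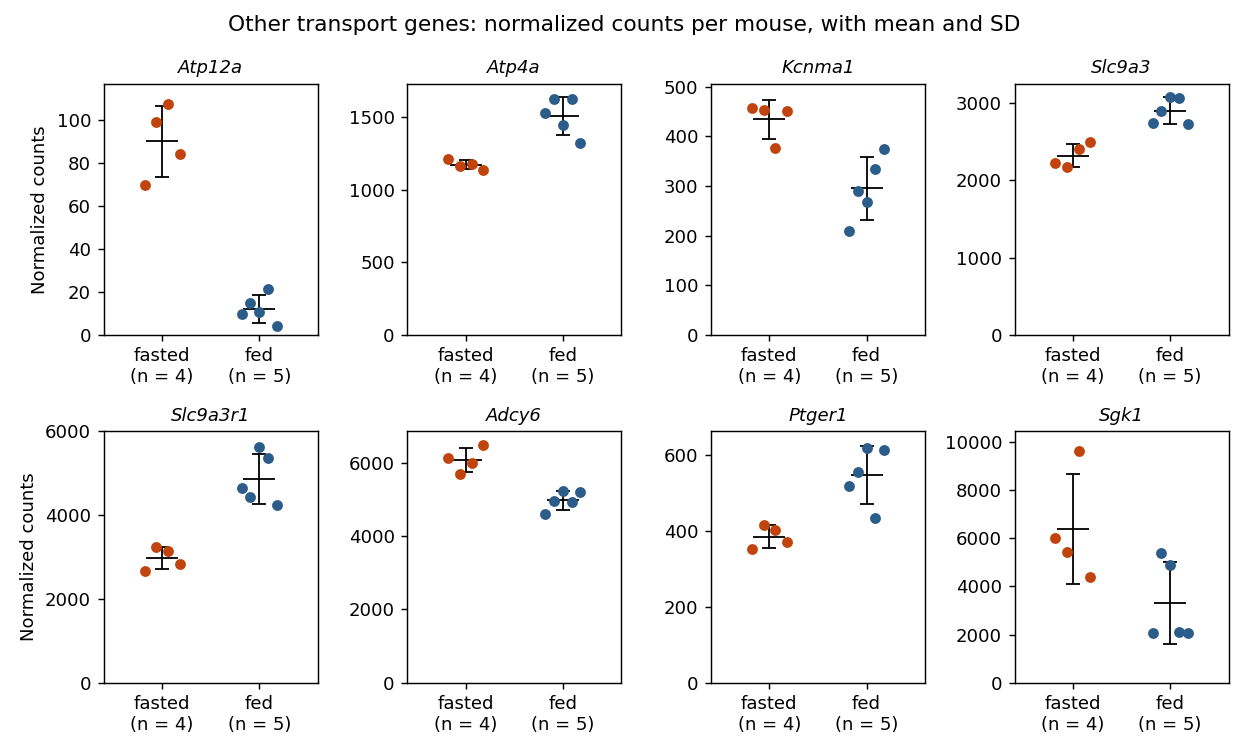
Normalized counts (linear axes from 0) of the 7 called genes of the further list and of Sgk1, 1 point per mouse, fasted (n = 4) left of fed (n = 5), with mean and SD. The groups are apart for all 7 called genes, most widely for Atp12a (90.2 ± 16.6 in fasted mice and 12.1 ± 6.5 in fed mice), and overlap for Sgk1. Groups were apart for 18.8% of the tested genes of the further list and for 14.3% of all genes tested.

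By the authors' own fit, in the authors' deposited table, Bsnd, Slc12a7, Nedd4l and Scnn1b, that is 4 of the 28 genes, were under an adjusted p of 0.05, where 16.0% of its genes were. Their log2 fold changes in the authors' deposited table were -0.54 for Bsnd, -0.33 for Slc12a7, 0.32 for Nedd4l and 0.25 for Scnn1b, and the adjusted p of Scnn1b there was 0.0298. Bsnd, Slc12a7 and Nedd4l were also below 0.01 in the authors' deposited table, as were 9.45% of its genes, and stood in the list of 1281 genes that the authors annotated. Slc12a7 was among the 24 genes of the term Symport, with a fold enrichment of 3.22 and a Benjamini value of 3.47e-05 in the authors' deposited table of terms. Bsnd was among the 21 genes of the term for the basolateral plasma membrane in the authors' deposited table (2.12-fold, Benjamini value 0.0361). Nedd4l was among the 6 genes of the term for regulation of sodium ion transport, whose Benjamini value in the authors' deposited table was 0.177.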

How the data were processed

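Cortex RNA of 4 fasted and 5 fed mice was extracted with TRIzol and sequenced from TruSeq libraries, per the labels' protocols. FastQC, TopHat2 2.0.9, HTSeq 0.9.1 and DESeq2 (version given as 3.5) are named per the submitters' processing notes, with mm10 and hg19 as builds, and the gene annotation and the strand setting of the counting are not given in the sources used here. Each of the 9 libraries has a deposited column of signal, which the authors made by scaling its gene counts with a single size factor. This was tested: each of the 161194 non-zero values equals a whole number of reads times that factor, within 0.01 reads. The deposited log2 fold changes, scores (fold change over its standard error), p-values and adjusted p-values come from the authors' fit, and the authors' deposited annotation tables give each term a fold ratio over background.

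Here, limma 3.58.1 with a trend was fitted in R 4.3.3 on log2(value + 1), two-sided, for every gene whose mean reached 10 normalized counts, with Benjamini-Hochberg adjustment over all of them. Within-mouse ratios were tested by exact permutation (scipy 1.17.1). The 28 genes, the further lists and the tests were chosen with earlier results of these data known. All 28 genes are named, and those of the further list that were called. Sgk1, Slc9a2, Nedd4, Slc4a8 and Slc14a2 were added after values were seen. Some genes of the further list stand in a marker list too, among them Hsd11b2, Aqp6 and Slc14a2. Some genes of the further list are not reported here by name and stay in its counts. Positions and lengths are from GENCODE M21 (GRCm38). The steps were checked on simulated data. Alternatives were other filters, pseudocounts, scalings and thresholds, DESeq2 1.42.0, edgeR 4.0.16 and voom on the recovered reads, and libraries left out. The p-values set the difference of the groups against the spread between these mice. The labels do not name cages or litters, so differences between these could not be taken into account. No sample column was left unused.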

Additional observations from a re-analysis of the deposited data

Results flagged for a closer look

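Of 70 groups of values searched for a library far from the rest of its group, 6 were found, and chance gives about 5%, or 1 in 20. Kcnj16 had 14595 normalized counts in Fasted 2, against 19627 to 19790 in the other fasted mice. Scnn1b had 1742 in Fasted 4, against 1517 to 1537 in the other fasted mice. Slc12a2 had 2046 in Fasted 4, against 2464 to 2543 in the other fasted mice. Slc12a7 had 4398 in Fasted 3, against 3977 to 3994 in the other fasted mice, and this highest fasted value still lay below every fed value. Kcnma1, of the further list, had 376 in Fasted 3, against 452 to 457 in the other fasted mice. Atp1b1 had 57893 in Fed 3, against 33851 to 40759 in the other fed mice. Fed 3 is also the library with the highest share of Rn45s, and the part of that share in the value was not tested.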

How the results depend on the processing

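Of the 28 genes, 3 were called, and the number was 5 with voom and quality weights and 5 with DESeq2, where Scnn1b and Aqp1 were added. Leaving out 1 library at a time gave 1 to 4 calls. Bsnd was called in all 22 alternatives, with adjusted p-values up to 0.00337 and changes between -0.58 and -0.52. Over all genes, 1656 were called, against 2628 at an adjusted p under 0.1, 2702 with quality weights, 1068 without Fed 3 and Fasted 1, and 861 to 1959 without 1 library. Of the further list 7 were called, against 11 at an adjusted p under 0.1, 11 with quality weights, 4 without Fed 3 and Fasted 1, and 4 to 10 without 1 library. The cause of these differences was not tested. No called gene turned its direction in any alternative, the uncalled Atp1b1, Kcnj1, Kcnj16, Scnn1g, Slc12a1, Slc12a3 and Wnk1 lay on the other side of 0 in 1 to 4 of them, and no scaling moved the median of all genes by more than 0.1. No paired analysis was possible because the labels number no replicates. With 4 and 5 mice, uncalled genes are described by their intervals, and each interval gives the changes that these mice leave possible.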
